A study of Mus musculus with 16 samples.

Results

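The genes described here are 9 members of the BCL2 family in subcutaneous MC38 tumors of mice treated with an antibody against PD-1 (aPD-1) or with control IgG. They were matched by symbol to a table of 53465 genes, and all 9 were found. Bcl2a1a, Bcl2a1b, Bcl2a1d, Bcl2, Bcl2l1 and Mcl1 encode the 6 anti-apoptotic members of the set, Bcl2l11 encodes a BH3-only protein, and Bax and Bak1 encode the pore-forming effectors. The set was chosen by readout, because the Bcl2a1 genes were higher in aPD-1 non-responders than in IgG controls in these same tumors. That difference is therefore given only as a description, with no test.

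MC38 is a mouse colon carcinoma line. Female C57BL/6 mice of 6 to 8 weeks of age were injected with MC38 cells under the skin of the right flank, and every group shared this procedure. Tumors of 150 to 250 mm3 on day 16 were enrolled, dosed with 200 µg of antibody on days 16 and 20, and taken on day 21. Bulk poly(A) RNA was sequenced from 2 frozen sections of 100 µm per tumor. The groups were 8 tumors given IgG (IgG control, replicates 1 to 8), 6 given aPD-1 and labelled non-responder (replicates 9 to 14) and 2 given aPD-1 and labelled responder (replicates 15 and 16). Response was assigned by the study from staining of T cells in the other part of the same tumors, at a single early time point, so the responder group was itself defined by T cell content. Each tumor came from another mouse, and p-values measure the spread between tumors.

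Mitochondrial apoptosis is decided by the balance among these proteins. Anti-apoptotic members such as BCL2, BCL-XL, MCL1 and A1 bind the BH3-only proteins and hold BAX and BAK in check. When BH3-only proteins outweigh them, BAX and BAK open pores in the outer mitochondrial membrane, cytochrome c leaves and caspases are activated. Lymphocytes depend on BCL2 and MCL1 for survival, while A1, the product of the Bcl2a1 genes, is an NF-kB target expressed mostly in blood cells. The mouse carries several near-identical copies of this gene where most mammals have a single one.

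The copies are shown first because their likeness limits how well reads can be assigned to each. Below are 126 aligned bases at the promoter of each copy, from the RefSeq promoter windows (GRCm38.p6), written 5′ to 3′ on the strand of the gene. Capitals mark GAGGAAGT, the type of site that ETS family factors bind, and TGATGCAA, an 8-letter stretch common to the copies. Both were chosen after the sequences were seen.
Bcl2a1a: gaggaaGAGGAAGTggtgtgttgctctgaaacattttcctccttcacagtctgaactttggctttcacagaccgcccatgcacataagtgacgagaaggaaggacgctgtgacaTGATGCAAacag
Bcl2a1b: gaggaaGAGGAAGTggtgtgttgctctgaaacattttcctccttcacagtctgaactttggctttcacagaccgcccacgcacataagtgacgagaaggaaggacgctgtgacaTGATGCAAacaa
Bcl2a1d: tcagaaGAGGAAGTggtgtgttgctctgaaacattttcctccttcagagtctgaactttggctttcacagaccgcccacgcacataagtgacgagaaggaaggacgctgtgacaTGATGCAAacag
Bcl2a1c: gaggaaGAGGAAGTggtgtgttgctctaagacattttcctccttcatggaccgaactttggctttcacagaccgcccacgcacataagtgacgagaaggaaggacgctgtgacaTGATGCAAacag

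The stretches lie at chr9:88956810-88956935 (plus strand, Bcl2a1a), chr9:89199119-89199244 (plus strand, Bcl2a1b), chr9:88731835-88731960 (minus strand, Bcl2a1d) and chr9:114329915-114330040 (plus strand, Bcl2a1c). Counted from the RefSeq start, they run from -110 to 16 for Bcl2a1a and Bcl2a1d. They run from -154 to -29 for Bcl2a1b and from -220 to -95 for Bcl2a1c. TGATGCAA thus lies after the start in Bcl2a1a and Bcl2a1d, and before it in the other copies. Bcl2a1a and Bcl2a1b were identical at 124 of the 126 positions, and Bcl2a1d matched each of them at 121. Bcl2a1c, a further copy that is no member of the set, matched Bcl2a1d at 117 positions. GAGGAAGT stood, on either strand, in 3.20% of 32851 promoter windows of the same kind, and TGATGCAA in 0.895%. Among the 9 members, whose promoter windows were all found, the first was present for the 3 Bcl2a1 genes and Bak1, and the second for the 3 Bcl2a1 genes. A window matching the kappa B consensus was found for Bcl2l1 and for no other member, against 4.51% of all windows. Bcl2l1 had 3 windows and Bcl2l11 had 2, where each other member had 1. These are matches of letters in one window per start site, and nothing about binding was measured.

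The transcripts of the copies also share sequence. Of all stretches of 150 bases in the annotated transcript, 28.2% of those of Bcl2a1a, 14.2% of those of Bcl2a1b and 30.3% of those of Bcl2a1d occurred unchanged in another copy. The deposited counts of these 3 genes were not whole numbers in 16 of 16 tumors, as happens where a read is divided among genes, whereas the counts of Bcl2l1, Mcl1, Bcl2l11, Bax and Bak1 were whole in every tumor, within 0.001 of a count, and those of Bcl2 in all but 5. Values of single Bcl2a1 copies are thus uncertain, and their sum is given beside them. Bcl2a1c had no more than 2 counts in any tumor and was not tested.

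Library totals ranged from 26603497 to 39948901 counts, and the 9 members held between 269 and 13680 counts per tumor, so counting error was small for all of them. Levels are CPM, counts scaled to the library total with TMM factors, and "per kb" marks CPM divided by exon length. That length covers all annotated exons of a gene merged, not the transcripts expressed here, so orders between genes depend on it. Several libraries stood apart. Mitochondrial RNA made up 7.60% of counts in IgG control replicate 1, 6.00% in non-responder replicate 9 and 5.73% in non-responder replicate 14, against 2.52% to 3.25% in the other 13 tumors. In IgG control replicate 3, 1 gene, CT010467.1, took 20.4% of all counts. The epithelial markers Epcam, Krt7, Krt8, Krt18 and Krt19, which a colon carcinoma would carry, were near 0 in the IgG controls (summed 0.487 to 5.55 CPM) and non-responders (0.213 to 4.24 CPM).

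Per kb of exon, Mcl1 was the most abundant member and Bcl2 the least abundant in the IgG controls. Mean CPM per kb there was 84.9 ± 4.79 for Mcl1, 50.2 ± 16.9 for Bax, 41.2 ± 6.20 for Bcl2a1b and 36.6 ± 5.36 for Bak1 (SD, n = 8). The next genes were Bcl2a1d at 13.8 ± 0.836, Bcl2a1a at 11.9 ± 1.64, Bcl2l1 at 8.62 ± 0.564, Bcl2l11 at 4.76 ± 0.673 and Bcl2 at 1.82 ± 0.434 CPM per kb (SD, n = 8). Neighbors in this order kept their places in at least 14 of the 16 tumors, except Bax and Bcl2a1b, which did so in 10 and whose levels overlapped within each treatment group. In the responders, Bcl2 reached 5.57 ± 2.06 CPM per kb (SD, n = 2).

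**Figure D1:**
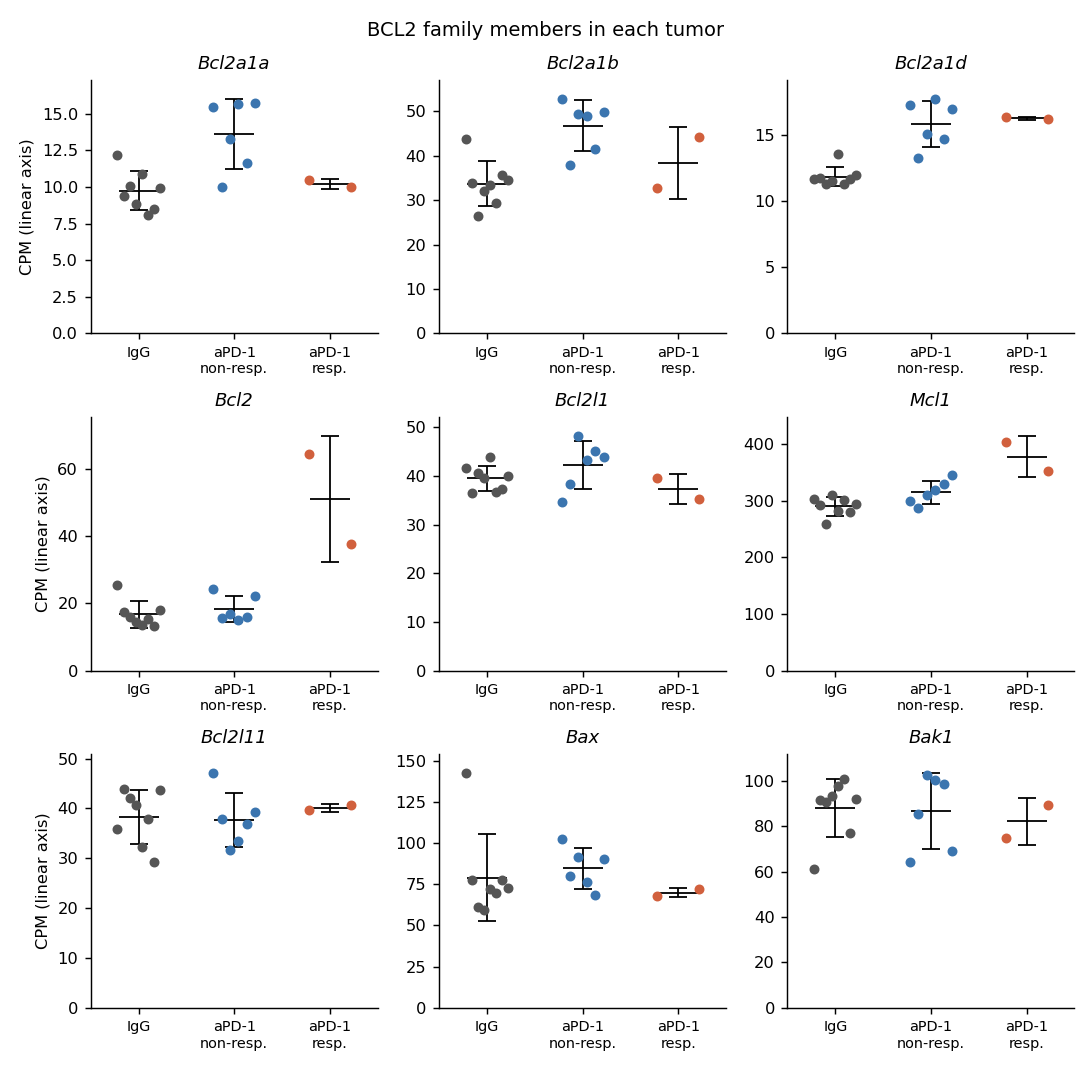
Levels of the 9 BCL2 family members in each of 16 tumors, in CPM on linear axes that start at 0 and differ between panels. Points are tumors, horizontal lines are group means and bars ±1 SD (n = 8 IgG control, 6 aPD-1 non-responder, 2 aPD-1 responder). The 6 non-responders have the highest mean of Bcl2a1a and Bcl2a1b, and both responders lie above every other tumor for Bcl2 and Mcl1.

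The clearest difference among the anti-apoptotic members was in Bcl2 itself, the founding survival gene of the family, which was higher in both responders than in every other tumor. Bcl2 (chr1:106538178-106714274, minus strand) measured 64.4 CPM in responder replicate 15 and 37.7 CPM in replicate 16. The non-responders ranged from 14.9 to 24.4 CPM with a median of 16.4, and the IgG controls from 13.4 to 25.6 CPM with a median of 15.6. The non-responders and IgG controls overlapped throughout, and the 2 responders differed widely from each other. Bcl2 rose 2.78-fold against the non-responders (log2 fold change 1.47, SE 0.24, adjusted p = 2.56e-04, edgeR's quasi-likelihood test). Against the IgG controls it rose 3.06-fold (1.61, SE 0.22, adjusted p = 4.44e-05). Leaving out responder replicate 15 lowered the first log2 fold change to 0.96, with adjusted p = 0.0755 in edgeR's quasi-likelihood test, and the second to 1.10, with adjusted p = 0.0246.

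Markers of several other cell types were also higher in the responders, where 15.4% of all genes were higher than in non-responders. All 6 of 6 B cell markers were higher in responders than in non-responders by the same test, and their summed level was 1040 CPM in responder replicate 15 and 271 CPM in replicate 16, against 1.55 to 5.80 CPM in the non-responders and 1.35 to 6.87 CPM in the IgG controls. All 6 of 6 T cell markers were also higher, at 179 and 158 CPM in the responders, 9.31 to 25.5 CPM in the non-responders and 5.85 to 17.3 CPM in the IgG controls. Responders were assigned by T cell staining, so the T cell difference follows from the grouping and is no separate result. All 6 of 6 dendritic cell markers were higher too, summing to 90.7 and 76.4 CPM against 10.9 to 20.3 CPM in the other tumors. Of the NK cell list 3 of 4 were higher (12.3 and 20.5 CPM against 4.10 to 8.87 CPM), and of the endothelial list 3 of 5 (341 and 183 CPM against 38.4 to 163 CPM). Of the neutrophil list 2 of 6 tested were higher (15.9 and 36.2 CPM against 5.05 to 13.6 CPM). The macrophage and monocyte list had 1 of 8 higher, not above the share of all genes (2390 and 2589 CPM against 1041 to 2258 CPM). The mast cell list had 1 of 6, near that share (104 and 37.6 CPM against 6.50 to 52.2 CPM), with replicate 16 inside the range of the other tumors. No gene of the fibroblast list was called. Of the proliferation list 2 of 5 were lower and none higher, where 4.34% of all genes were lower. Its sums were 1176 and 1563 CPM in the responders, against 1230 to 2183 CPM in the IgG controls and 1317 to 2013 CPM in the non-responders. The B cell, endothelial and mast cell sums were higher in replicate 15, the responder with more Bcl2. The T cell, dendritic cell and macrophage sums were closer, and the NK cell and neutrophil sums were higher in replicate 16. Fat cell markers (5 of 5 higher) summed to 2165 CPM in replicate 15 and 379 CPM in replicate 16, against 16.8 to 137 CPM in all other tumors, and the 5 epithelial markers named above to 118 and 46.9 CPM. The part of these cell types in the Bcl2 difference was not tested. In bulk tissue, more cells of a type and more RNA per cell cannot be told apart.

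Mcl1 (chr3:95658788-95663176, plus strand), which encodes a short-lived survival protein needed by many cell types, was also highest in the responders, by a smaller margin. It measured 404 CPM in responder replicate 15 and 352 CPM in replicate 16. The non-responders lay between 287 and 345 CPM with a median of 315, and the IgG controls between 259 and 311 CPM with a median of 293. Both responders were above all 14 other tumors, and 4 of 6 non-responders were above all IgG controls. Mcl1 rose 1.304-fold against the IgG controls (log2 fold change 0.38, SE 0.10, adjusted p = 0.0109, edgeR's quasi-likelihood test). The 1.20-fold difference from the non-responders did not pass (0.26, SE 0.11, adjusted p = 0.0963), although DESeq2 gave 0.0351. Without responder replicate 15 the log2 fold change against the IgG controls was 0.21, with adjusted p = 0.517 in edgeR's quasi-likelihood test.

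The Bcl2a1 genes, whose product A1 binds BH3-only proteins such as BIM and NOXA, lie near each other on chromosome 9 and were the reason the set was chosen. Bcl2a1b (chr9:89199209-89207827, plus strand) was the most abundant copy, with 26.5 to 43.8 CPM in the IgG controls (median 33.6) and 38.0 to 52.8 CPM in the non-responders (median 49.1). Bcl2a1a (chr9:88956900-88962419, plus strand) ranged from 8.06 to 12.2 CPM in the IgG controls (median 9.66) and from 10.03 to 15.7 CPM in the non-responders (median 14.3). Bcl2a1d (chr9:88723285-88731914, minus strand) ranged from 11.3 to 13.6 CPM in the IgG controls (median 11.7) and from 13.3 to 17.8 CPM in the non-responders (median 16.0). Non-responders above every IgG control numbered 4 of 6 for Bcl2a1a, 4 of 6 for Bcl2a1b and 5 of 6 for Bcl2a1d, so the groups overlapped slightly for each copy. The log2 fold changes of non-responders over IgG controls were 0.49 (SE 0.12) for Bcl2a1a, 0.47 (SE 0.11) for Bcl2a1b and 0.42 (SE 0.08) for Bcl2a1d. Across all genes, 0% of 18251 had an adjusted p under 0.05 in this comparison by edgeR's quasi-likelihood test. In that test 694 had an unadjusted p under 0.05, fewer than chance alone gives at that threshold. DESeq2 called 11. The Bcl2a1 values chose the set, and nothing is read from them.

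The responders, which the rule did not use, did not share a single level of the copies. Bcl2a1b measured 32.7 CPM in responder replicate 15, within the IgG range, and 44.1 CPM in replicate 16, just above it. Bcl2a1a measured 10.5 and 9.98 CPM, within the IgG range in both. Bcl2a1d measured 16.4 and 16.2 CPM, above all 8 IgG controls and amid the non-responders.

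By edgeR's quasi-likelihood test, Bcl2a1d was 1.37-fold higher in responders than in IgG controls (log2 fold change 0.46, SE 0.12, adjusted p = 0.00867). That adjusted p was 0.227 without responder replicate 15 and 0.100 without replicate 16. For Bcl2a1a the same comparison gave 0.07 (SE 0.18, adjusted p = 0.824, edgeR's quasi-likelihood test), and for Bcl2a1b 0.19 (SE 0.16, adjusted p = 0.455). Against the non-responders, the log2 fold changes were -0.41 for Bcl2a1a (SE 0.19, adjusted p = 0.147, edgeR), -0.28 for Bcl2a1b (SE 0.17, adjusted p = 0.292, edgeR) and 0.04 for Bcl2a1d (SE 0.12, adjusted p = 0.882, edgeR). None of these 3 passed. The non-responders and IgG controls in these comparisons are the tumors that chose the set.

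Summed, the 3 copies measured 59.5 CPM in responder replicate 15 and 70.3 CPM in replicate 16, against 61.3 to 85.6 CPM in the non-responders (median 80.0) and 48.0 to 67.6 CPM in the IgG controls (median 55.5). The sum of the responders fell between the medians of the other groups, and it was lower than in the non-responders by a log2 fold change of -0.23 that did not pass (SE 0.15, adjusted p = 0.312, edgeR's quasi-likelihood test). It differed from the IgG controls by 0.23 (SE 0.14, adjusted p = 0.262, edgeR), which did not pass either. Without responder replicate 16 these values were -0.41 and 0.05, and neither passed. Some shares of the sum in the responders lay outside the range of the other tumors. Bcl2a1b supplied a mean of 60.7% ± 3.06 (SD, n = 8) in the IgG controls, 61.4% ± 1.42 (n = 6) in the non-responders and 58.8% ± 5.52 (n = 2) in the responders. Bcl2a1d supplied 27.5% in responder replicate 15 and 23.1% in replicate 16, against 17.3% to 23.7% in the IgG controls and 19.5% to 21.7% in the non-responders. Bcl2a1b supplied 54.9% in replicate 15 and Bcl2a1a 14.2% in replicate 16, each the lowest of the 16 tumors. With shared sequence among the copies, a shift between them cannot be told apart from how reads were divided.

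**Figure D2:**
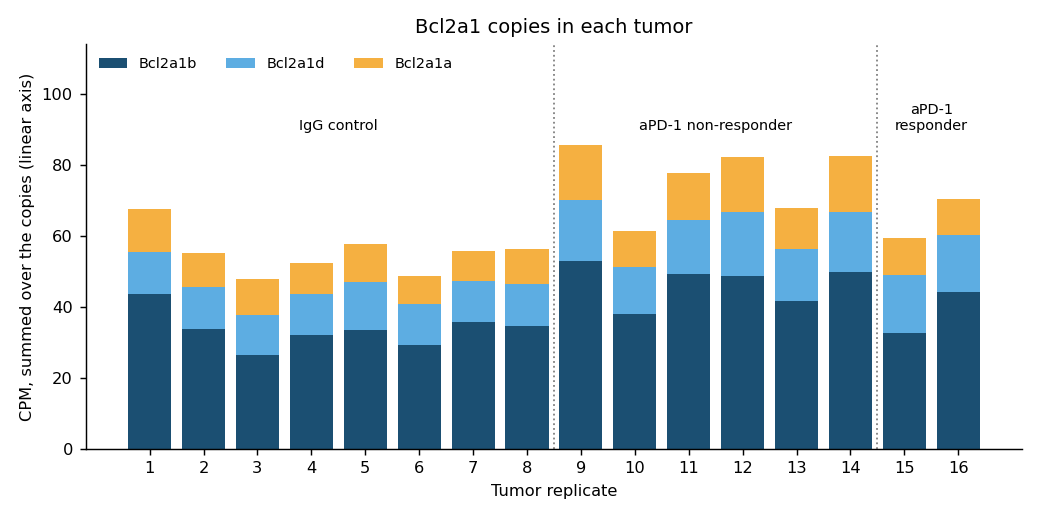
Summed level of the Bcl2a1 copies in each tumor, in CPM on a linear axis from 0, stacked by copy. Tumors are numbered by replicate, and dotted lines separate the 3 groups. Non-responders reach 61.3 to 85.6 CPM, IgG controls 48.0 to 67.6 CPM, and Bcl2a1b is the largest part of every bar.

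Bcl2l1 (chr2:152780668-152831728, minus strand), which encodes BCL-XL, differed little among the groups. It measured 39.5 CPM in responder replicate 15 and 35.2 CPM in replicate 16, 34.6 to 48.3 CPM in the non-responders (median 43.6) and 36.6 to 43.9 CPM in the IgG controls (median 39.7). The 3 groups overlapped, and the log2 fold changes of responders were -0.18 (SE 0.12, adjusted p = 0.365, edgeR's quasi-likelihood test) against non-responders and -0.08 (SE 0.12, adjusted p = 0.690) against IgG controls.

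Bcl2l11 (chr2:128126038-128162547, plus strand) encodes BIM, the BH3-only protein that removes lymphocytes when survival signals end. Its level was alike in the groups, with 39.6 and 40.6 CPM in the responders, 31.7 to 47.1 CPM in the non-responders (median 37.3) and 29.3 to 43.9 CPM in the IgG controls (median 39.2). Both responders lay inside the range of each other group. The log2 fold change of responders was 0.09 (SE 0.16, adjusted p = 0.773, edgeR's quasi-likelihood test) against non-responders, an interval of -0.24 to 0.41 at 2 SE. Against the IgG controls it was 0.07 (SE 0.16, adjusted p = 0.807, edgeR).

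Bax (chr7:45461697-45466898, minus strand) and Bak1 (chr17:27019810-27029009, minus strand) encode the effectors that form the pores. Bax measured 68.0 and 71.9 CPM in the responders, 68.2 to 102.8 CPM in the non-responders (median 85.3) and 59.1 to 142.8 CPM in the IgG controls (median 72.4). Bak1 measured 74.9 and 89.5 CPM in the responders, 64.2 to 102.6 CPM in the non-responders (median 92.0) and 61.3 to 101.0 CPM in the IgG controls (median 91.7). The groups overlapped for both genes, and IgG control replicate 1 and non-responder replicate 9 had both the most Bax and the least Bak1 of their groups. Against the non-responders, the responders' log2 fold change was -0.28 for Bax (SE 0.26, adjusted p = 0.526, edgeR's quasi-likelihood test) and -0.08 for Bak1 (SE 0.20, adjusted p = 0.844, edgeR). At 2 SE these intervals ran from -0.80 to 0.24 and from -0.47 to 0.32, so changes of moderate size in either direction were not detectable with 2 responders. Bak1 overlaps Ggnbp1 on the opposite strand, which held 42 to 130 counts, and the strand setting of the counting was not given in the sources used here.

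In all, 1 of 9 members rose in responders against non-responders (Bcl2) and none fell, where 15.4% of 18251 tested genes rose and 4.34% fell. Against the IgG controls, 3 of 9 members rose (Bcl2a1d, Bcl2 and Mcl1) and none fell, where 17.7% of all genes rose and 5.17% fell. The Bcl2a1 genes were chosen on these same IgG controls, so the call of Bcl2a1d is not independent of the rule. The count of 3 includes it and is not read as a result about the set. The members' median log2 fold change was -0.08 against the non-responders and 0.07 against the IgG controls, beside 0.02 and -0.02 over all genes. The 3 pro-apoptotic members were not called in either comparison. Both counts were the same, at 1 and 3, without the 3 tumors of high mitochondrial share, and fell to 0 and 1 without responder replicate 15. The 2 comparisons share the responder tumors.

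**Figure D3:**
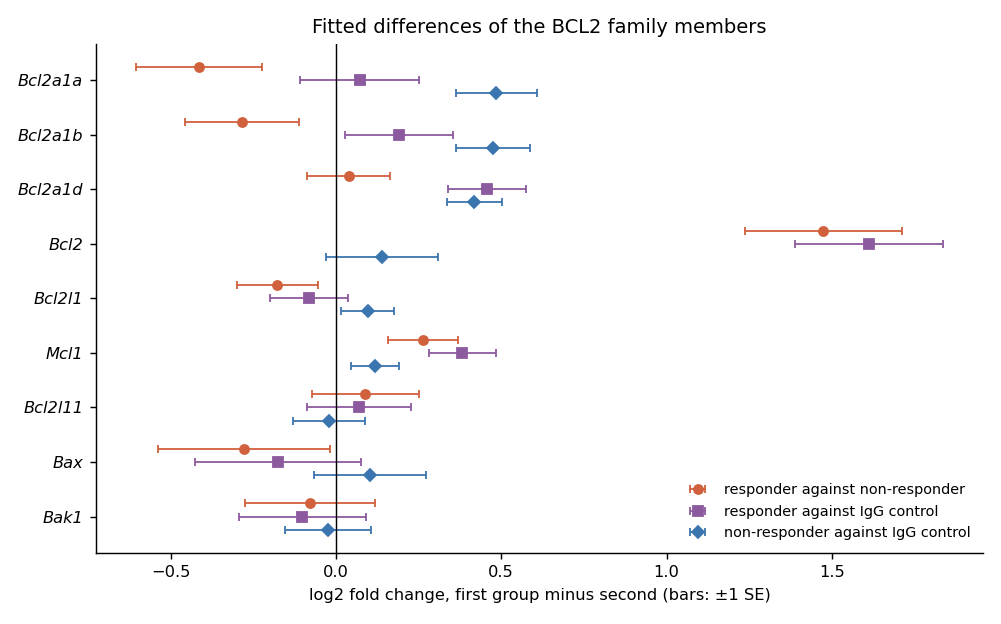
Fitted log2 fold changes of the 9 members in 3 comparisons, with bars of ±1 SE, from 1 edgeR fit of all 16 tumors. Bcl2 stands at 1.47 and 1.61 in the responder comparisons, the Bcl2a1 genes at 0.42 to 0.49 in non-responders over IgG controls (the difference that chose the set), and the 3 pro-apoptotic members lie between -0.28 and 0.10.

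Among the 14 IgG control and non-responder tumors, Bcl2, Bax and Bak1 followed the mitochondrial share of the library. In the 3 tumors above 5% of mitochondrial RNA, Bcl2 measured 22.3 to 25.6 CPM, against 13.4 to 18.0 CPM in the other 11. Bax measured 90.6 to 142.8 CPM in those 3 tumors and 59.1 to 91.5 CPM in the other 11. Bak1 was low in the same tumors, at 61.3 to 69.1 CPM against 77.1 to 102.6 CPM. Their ranges did not overlap for Bcl2 and Bak1 and met at 1 tumor for Bax, while Mcl1, Bcl2l1, Bcl2l11 and the Bcl2a1 genes overlapped more widely. Within each group, however, Bcl2a1b was highest in these 3 tumors. It measured 43.8 CPM in IgG control replicate 1, against at most 35.7 CPM in the other controls. Non-responder replicates 9 and 14 had 52.8 and 49.9 CPM, against at most 49.4 CPM. Bcl2a1a was highest in IgG control replicate 1 and non-responder replicate 14 too, but Bcl2a1d was highest in none of them. The difference that chose the set is not given without these tumors, so their part in it is not known. The summed level of 8 macrophage and monocyte markers was lowest in these 3 tumors too, at 1041, 1063 and 1152 CPM against at least 1394 CPM elsewhere. Other lists also set them apart from the other 11. Proliferation markers summed to 1230 to 1404 CPM against at least 1578 CPM, endothelial markers to 38.4 to 62.2 CPM against at least 66.0 CPM, and NF-kB targets to 595 to 783 CPM against at most 567 CPM. Whether RNA quality or cell content lies behind this was not tested.

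**Figure D4:**
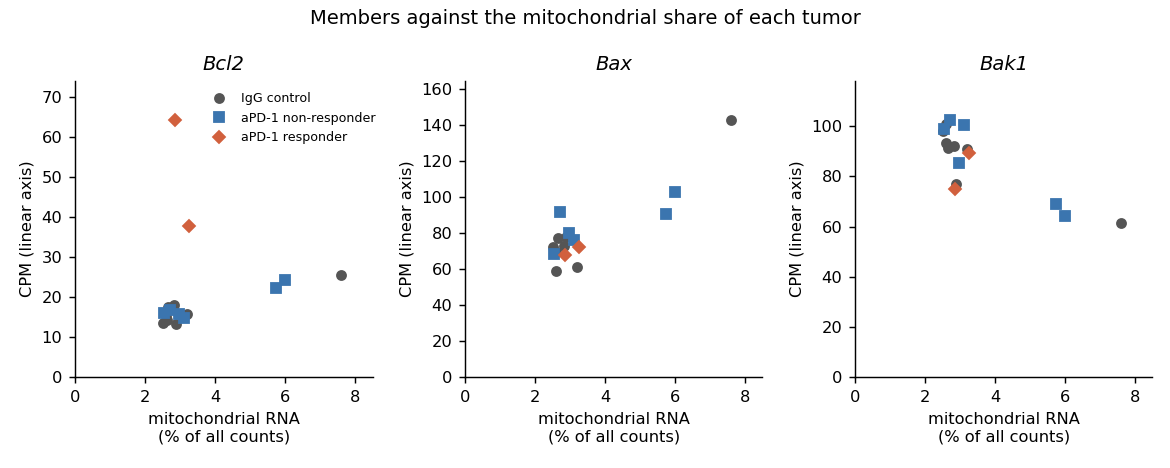
Levels of Bcl2, Bax and Bak1 in CPM (linear axes from 0) against the share of mitochondrial RNA in percent of all counts, 1 point per tumor, marked by group. The 3 tumors above 5% have more Bcl2 (22.3 to 25.6 CPM) and less Bak1 (61.3 to 69.1 CPM) than the other 11 IgG control and non-responder tumors, and the 2 responders have the most Bcl2 at an ordinary mitochondrial share.

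Each member was then compared with the mean log2 level of 5 gene lists over the 14 IgG control and non-responder tumors, in 45 relations. Those of the Bcl2a1 genes include the difference that chose the set, and they entered the adjustment. Nothing is read from them. The lists were markers of macrophages and monocytes, neutrophils, T cells and B cells, and NF-kB targets. After Benjamini-Hochberg adjustment 4 relations had a permutation p under 0.05, namely Bcl2, Bax and Bak1 with the macrophage list and Bcl2 with the NF-kB targets. These rest on Pearson's r, and by Spearman's rho only Bak1 with the macrophage list had an adjusted permutation p under 0.05 (0.0355). As the 3 tumors of high mitochondrial share stood apart for Bcl2, Bax and Bak1, no correlation over all 14 tumors is given for them. Within the other 11 tumors none of the 45 relations passed. There Bcl2 and the macrophage list had r = 0.07 (permutation p = 0.831, adjusted 0.869) and rho = -0.09 (permutation p = 0.795, adjusted 0.879). Bak1 and that list had r = 0.44 (permutation p = 0.168, adjusted 0.345) and rho = 0.60 (permutation p = 0.0573, adjusted 0.250). Bax and that list had r = 0.19 (permutation p = 0.574, adjusted 0.694) and rho = 0.0091 (permutation p = 0.990, adjusted 0.990). Bcl2 and the NF-kB targets had r = 0.52 (permutation p = 0.0980, adjusted 0.294) and rho = 0.52 (permutation p = 0.108, adjusted 0.286).

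Beyond the members, 46 genes were followed in 4 lists, 3 of the apoptosis machinery and 1 of NF-kB targets, of which 43 were measured well enough to test. In responders against non-responders 8 rose (18.6%, beside 15.4% of all genes) and 1 fell (2.33%, beside 4.34%). Against IgG controls 11 rose (25.6%, beside 17.7%) and 1 fell (2.33%, beside 5.17%), while in non-responders against IgG controls none of the 43 passed. The median log2 fold changes were 0.17, 0.21 and 0.05, beside 0.02, -0.02 and -0.01 over all genes. The genes passing in the 2 responder comparisons numbered 4 and 5 without responder replicate 15, 14 and 20 without IgG control replicate 1, and 15 and 24 without the 3 tumors of high mitochondrial share.

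Among the further BCL2 family genes, 2 of 12 tested rose in responders against non-responders, beside 15.4% of all genes, and none fell. Pmaip1, which encodes the BH3-only protein NOXA that binds MCL1 and A1, measured 12.03 and 10.8 CPM in the responders against 2.51 to 4.41 CPM in the non-responders and 1.94 to 4.21 CPM in the IgG controls. It rose against non-responders by a log2 fold change of 1.66 (SE 0.26, adjusted p = 1.71e-04, edgeR's quasi-likelihood test). Bcl2l14, a less studied member of the family, measured 3.58 and 3.99 CPM against 0.237 to 1.18 CPM in the non-responders, a log2 fold change of 2.75 (SE 0.48, adjusted p = 5.67e-04, edgeR). For both genes the responders lay clear of all other tumors.

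Bik, another BH3-only gene, measured 1.57 and 0.619 CPM in the responders and at most 0.490 CPM in any other tumor. It passed against the IgG controls (2.28, SE 0.64, adjusted p = 0.0146, edgeR) but not against the non-responders (1.97, SE 0.68, adjusted p = 0.0504, edgeR). Of the others, Bok, a relative of BAX and BAK, was lowest at 22.5 and 24.8 CPM in the responders (log2 fold change -0.36, SE 0.14, adjusted p = 0.0832, edgeR, against non-responders). The BH3-only genes Bad, Bbc3 (PUMA), Bid and Bmf had log2 fold changes of -0.38, -0.32, 0.04 and 0.19 against the non-responders, and Bcl2l2 (BCL-W), Bcl2l12, Bcl2l13 and Bcl2l15 had 0.02, 0.25, 0.17 and -0.14. None of these 9 passed in either comparison. Bcl2a1c, Bcl2l10 and Hrk were too low to test.

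Downstream of the mitochondrion, 2 of 12 genes of the apoptosome and caspase list rose and 1 fell against non-responders, where 15.4% of all genes rose and 4.34% fell. The rising genes were the inhibitors of apoptosis Birc3 (log2 fold change 0.71, SE 0.14, adjusted p = 0.00158, edgeR) and Birc2 (0.48, SE 0.16, adjusted p = 0.0453, edgeR). Cycs, which encodes cytochrome c, fell by 0.44 on the log2 scale (SE 0.15, adjusted p = 0.0498, edgeR), from 163 to 193 CPM in the non-responders to 115 and 145 CPM in the responders. That fall depends on the setting, since no gene of the 4 lists fell with no filter, with the stricter filter, or without any 1 of IgG control replicates 3, 5, 6 and 8, non-responder replicates 11, 13 and 14 and responder replicate 15. Against the IgG controls only Birc3 of the 12 genes passed (0.83, SE 0.13, adjusted p = 2.00e-04, edgeR), where 17.7% of all genes rose and 5.17% fell. Birc2 (0.44, adjusted p = 0.0512, edgeR), Cycs (-0.41, adjusted p = 0.0537, edgeR) and Xiap (0.54, adjusted p = 0.121, edgeR) did not.

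In the death receptor list, 1 of 10 genes rose against non-responders, beside 15.4% of all genes, the receptor Fas (log2 fold change 0.76, SE 0.21, adjusted p = 0.0147, edgeR). Tnfsf10, which encodes TRAIL, did not pass there (0.96, SE 0.33, adjusted p = 0.0502, edgeR). Against IgG controls 4 of 10 rose and 1 fell, where 17.7% of all genes rose and 5.17% fell. The rising genes were Fas (0.92, adjusted p = 0.00225, edgeR), its ligand Fasl (1.74, adjusted p = 0.00265, edgeR), Tnfsf10 (1.44, adjusted p = 0.00229, edgeR), and Cflar, which encodes the caspase-8 inhibitor cFLIP (0.41, adjusted p = 0.0231, edgeR). Tnfrsf10b, the mouse TRAIL receptor, fell by 0.46 on the log2 scale (adjusted p = 0.00945, edgeR). It measured 20.5 and 23.4 CPM in the responders, below the 25.6 to 30.1 CPM of the 6 non-responders, a log2 fold change of -0.35 that did not pass (adjusted p = 0.0501, edgeR).

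Of 9 NF-kB targets, 3 rose in both responder comparisons, where 15.4% and 17.7% of all genes rose. Cd83, a marker of activated antigen-presenting cells and lymphocytes, rose by 2.03 (SE 0.27, adjusted p = 3.17e-05, edgeR's quasi-likelihood test) against non-responders. Icam1, an adhesion molecule, rose by 1.71 (SE 0.24, adjusted p = 7.08e-05, edgeR), and Tnfaip3, an inhibitor of the pathway, by 1.03 (SE 0.25, adjusted p = 0.00644, edgeR). Against the IgG controls these 3 rose by 1.95, 1.91 and 1.11 in the same order. The remaining 6, Nfkbia, Nfkbie, Nfkb1, Nfkb2, Relb and Traf1, had log2 fold changes from -0.29 to 0.44 and did not pass against non-responders.

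**Figure D5:**
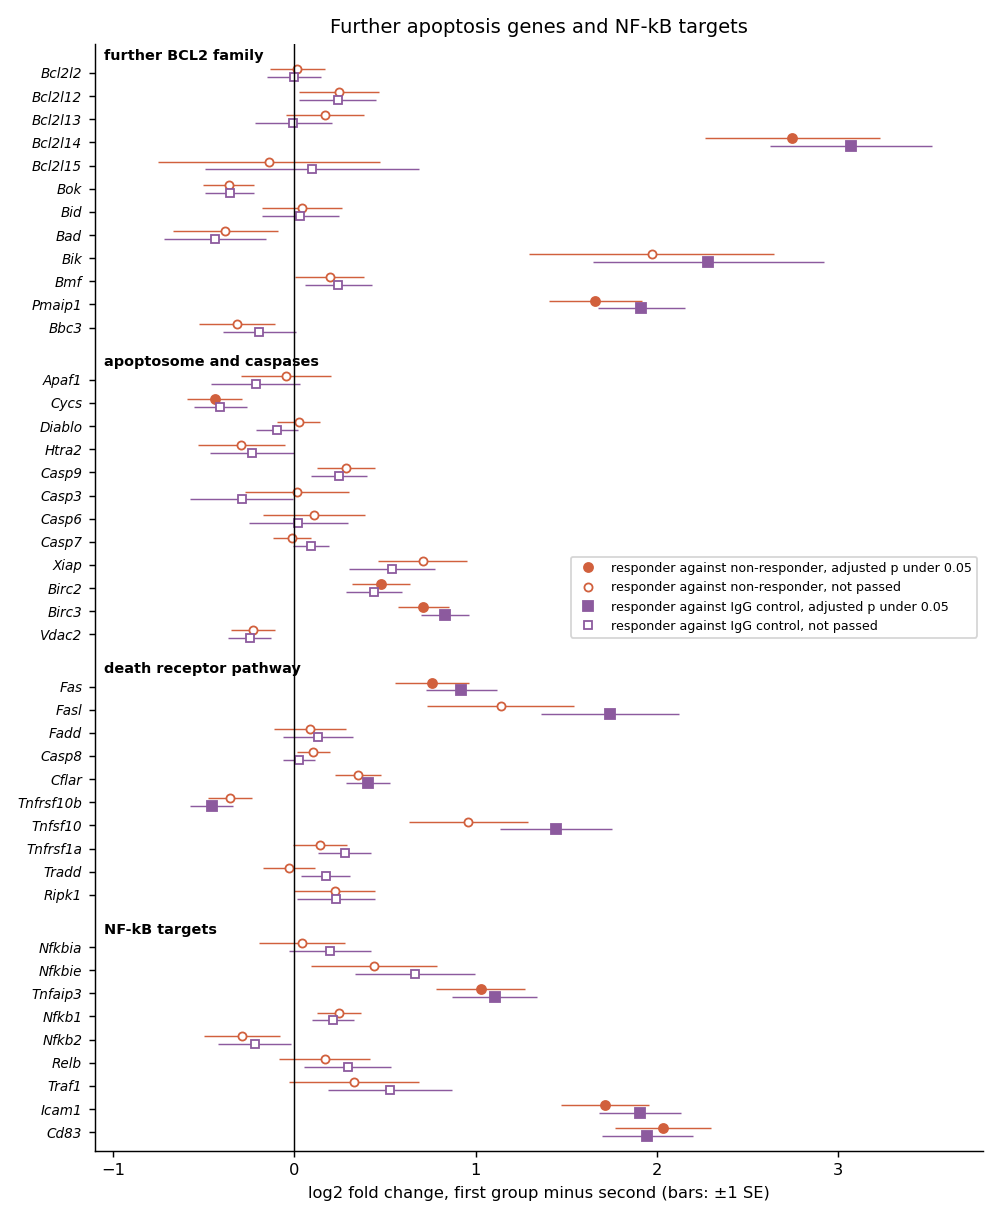
Log2 fold changes of 43 genes of 3 apoptosis lists and 1 list of NF-kB targets in responders against non-responders (circles) and against IgG controls (squares), with bars of ±1 SE. Filled symbols have an adjusted p under 0.05 in edgeR's quasi-likelihood test, and the largest differences belong to Bcl2l14 (2.75 and 3.07), Cd83, Bik, Pmaip1 and Icam1.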

How the data were processed

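The authors aligned reads to GRCm38 with STAR 2.6 and deposited expected counts per gene from RSEM 1.3.0 (Ensembl 91), in 1 column per tumor. Of 53557 rows, 92 name no gene (spike-in controls, at most 0.000549% of a tumor) and were left out. Totals ran from 26603497 to 39948901 counts with a median of 34105808. Expected counts were rounded to whole numbers. No 2 columns agreed within sampling noise.

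Counts of all 16 tumors were fitted in edgeR 4.0.16 (R 4.3.3) with TMM factors, filterByExpr and the robust quasi-likelihood test. P-values were adjusted by Benjamini-Hochberg over 18251 genes, and an adjusted p under 0.05 was called. CPM correlations used log2 values with a prior count of 2 and 100000 permutations in Python 3.11.15 (numpy 2.4.6). Coordinates and exon lengths are from GENCODE M21 on GRCm38, and promoter windows, 250 bases before to 50 after each start, from RefSeq. Code was tested on simulated data.

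The members and gene lists were chosen with earlier results of these data known. Named were every member, every tested gene of the further BCL2 family list, in the other lists the 3 genes of smallest p in each responder comparison, and for Bcl2a1b, Bcl2 and Mcl1 the 5 genes of highest r. Other genes of those lists were named after their values were seen. Alternatives were DESeq2 1.42.0, median-of-ratios factors, no filter, a filter of 10 counts in 8 tumors, fits of only 2 groups, a prior count of 0.5, z scores, the Bcl2a1 genes summed, and each tumor left out. Leaving out IgG control replicates 1 and 3, or the 3 tumors above 5% mitochondrial RNA, was added after seeing the data.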

Additional observations from a re-analysis of the deposited data

Results flagged for a closer look

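Among 20 groups of member values (9 members and the Bcl2a1 sum, each in the IgG controls and the non-responders), 3 held a tumor whose gap to its nearest neighbor was large for the range of the group, where chance gives about 1 in 20. Bax measured 142.8 CPM in IgG control replicate 1, with the next control at 77.5 CPM and the lowest at 59.1 CPM. Bcl2 measured 25.6 CPM in the same tumor, with the next at 18.0 CPM and the lowest at 13.4 CPM. This tumor also had the highest mitochondrial share, 7.60% of counts, and its part in these values was not tested. Bcl2a1d measured 13.6 CPM in IgG control replicate 5, with the next at 11.99 CPM and the lowest at 11.3 CPM. Groups of 2 responders could not be examined in this way.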

How the results depend on the processing

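Between responders and non-responders, 1 member passed, against 2 in DESeq2 and 0 to 2 as single tumors were left out (0 without responder replicate 15, and 2 without non-responder replicate 10, where Bcl2a1a was counted, a gene chosen on these same non-responders). Against IgG controls 3 passed, against 1 with no filter and 1 to 3 with single tumors left out (1 without responder replicate 15). The further genes passing, 9 against non-responders, numbered 15 in DESeq2, 15 without IgG control replicates 1 and 3, 15 without the 3 tumors of high mitochondrial share, and 4 (without responder replicate 15) to 14 (without IgG control replicate 1) with single tumors left out. Against IgG controls, 12 became 19 and 24 under those 2 added alternatives, and 5 (without responder replicate 15) to 20 (without IgG control replicate 1). The members' median log2 fold change of non-responders over IgG controls, 0.12, was 0.26 without IgG control replicates 1 and 3, and 0.085 to 0.26 with single tumors left out. The 4 relations with gene lists became 1 without IgG control replicate 1, and 1 with z scores. Signs turned for uncalled values: Bcl2a1d against non-responders was -0.0072 with no filter and -0.074 to 0.074 with single tumors left out, and against IgG controls these ranges were -0.036 to 0.10 for Bcl2a1a, -0.10 to 0.32 for Bcl2a1b and -0.0038 to 0.11 for Bcl2l11. The cause was not tested. No paired analysis was possible because the groups share no replicate number. With 2 responders, small differences could not be resolved.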

Other observations

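The genes most like 3 of the members by Pearson's r were looked for over the 14 IgG control and non-responder tumors, among 12023 genes averaging 100 counts or more. For Bcl2a1b these were BC028528 (r = 0.93), Tyrobp, an adapter of myeloid and NK cell receptors (0.92), Ptpn18 (0.89), Prdx5 (0.87) and P2ry14 (0.86). These r include the difference between IgG controls and non-responders that chose the set. Within the IgG controls alone they were 0.96, 0.70, 0.78, 0.90 and 0.58 in the same order. Within the non-responders alone they were 0.90, 0.98, 0.90, 0.47 and 0.90. The tumors of high mitochondrial share had the most Bcl2a1b of their groups. These were IgG control replicate 1 (43.8 CPM) and non-responder replicates 9 and 14 (52.8 and 49.9 CPM). No r without them is given, so their part in these r is not known. Tyrobp measured a mean of 56.3 CPM in the IgG controls, 71.5 CPM in the non-responders and 70.1 CPM in the responders. For Mcl1 they were Mxd1 and Lysmd2 (r = 0.83 each), Ap3s1 (0.78) and the immunoglobulin genes Ighg2b and Iglc2 (0.75 each), the last pair at means of 0.112 to 0.686 CPM in IgG controls and non-responders. The mean was taken over all 16 tumors, and this pair reached it only through the responders, at 173 and 43.1 CPM.

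For Bcl2 the nearest genes were Gm16536, Dock6, 9130221H12Rik, BC037034 and Nr2f2. The 3 tumors of high mitochondrial share stood apart for Bcl2, so no correlation is given. None of these 5 was called in responders against non-responders by edgeR's quasi-likelihood test, where Bcl2 rose, and their log2 fold changes there ran from -0.52 (Nr2f2) to -0.06 (Gm16536). Such likeness is a description over a small number of tumors.

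Over the same 14 tumors, the Bcl2a1 copies varied together (r = 0.85 to 0.90). These r also include the difference between IgG controls and non-responders that chose the set. The copies share sequence, and the part of divided reads in this was not tested.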
